A study of Mus musculus with 12 samples.

Results

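B cells from the spleen of BALB/c mice, aged 42 to 49 days after birth, were cultured for 24 h with 1 µM CpG-B, or without a CpG oligodeoxynucleotide (ODN) as control, and their RNA was sequenced. CpG-B is the linear, fully phosphorothioate class of CpG ODN. Such ODNs engage the endosomal receptor TLR9, which signals through MyD88 to NF-κB and MAP kinases and drives B cells into growth and division. Growing lymphocytes are known to take up more glucose and amino acids, to make more lipid, nucleotides and ribosomes, and, on the way to antibody secretion, to enlarge the endoplasmic reticulum. The comparison below covers these and other programmes across all expressed genes. The genes described are the 10682 known genes above 1 FPKM (fragments per kilobase of transcript and per M mapped fragments, M standing for mega) in at least 3 of the 6 libraries, out of 19682 known genes and 28019 entries in the table. The other 9000 known genes did not reach that level. Each group had 3 libraries, and 3 libraries each of CpG-A and CpG-C, the other ODN classes at the same dose and time, entered the same fit. The labels do not say whether libraries came from separate cultures or mice, so p-values measure the spread between libraries, which may be technical. They also do not say how the B cells were purified, and the ODN sequences are not given in the sources used here.

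Depth, read from the steps between low values, was 14.3 to 17.3 M fragments in the control and 24.4 to 25.0 M with CpG-B, so that 1 fragment on 1 kilobase was worth 0.04 to 0.0699 FPKM. The B cell label was checked: the 8 defining markers summed to 4140 to 4410 FPKM in the controls and 3350 to 3750 with CpG-B. Markers of T cells summed to 7.31 to 8.7 and 2.45 to 2.7 FPKM, and those of monocytes and macrophages to 13.2 to 15.1 and 4.37 to 4.74 FPKM. Of the 10 T cell and 12 monocyte and macrophage markers 3 each were members, the rest being below the level or not analysed here. The 9 neutrophil markers had no member, the 9 NK cell markers 1, which did not pass, and the 11 erythroid and platelet markers 3, which fell. The dendritic cell markers summed to 12.2 to 15.8 FPKM in the controls and 73 to 102 with CpG-B, and 2 of the 8, Bst2 and Flt3, made up most of that sum. The part of such other cells in the results was not tested, and fewer cells of a type cannot be told apart from less RNA per cell. Low signal was also higher in the controls, as given below. With the median of the unnamed loci, entries outside the known genes, subtracted, 1 T cell marker was higher and 0 lower. Of the monocyte and macrophage markers 1 was then higher and 1 lower, and of the erythroid and platelet markers 0 passed. The part of low signal in these falls was not tested.

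Most expressed genes differed between CpG-B and control. Of the 10682 members 7515 passed at an adjusted p under 0.05, or 70.4% (limma, Benjamini-Hochberg over all 15853 entries tested), with 3702 higher (34.7%) and 3813 lower (35.7%). Changes of at least 2-fold were found in 1195 members that were higher (11.2%) and 1053 that were lower (9.86%), and of at least 8-fold in 99 and 36. A fold here is on the log2(FPKM + 1) scale, which understates the change of low genes. The 3 libraries of each group did not overlap in 8011 members, or 75.0%. The median 95% half-width of a log2 change was 0.248, and 3119 of the 3167 members that did not pass had an interval that stayed within 1 log2 unit of 0. Rises were more frequent among abundant genes: at a mean of 100 FPKM or more, 335 members rose and 127 fell, whereas at 1 to 2 FPKM 213 rose and 403 fell. The split depends on the scale. With median-of-ratios scaling, which moves the median change to 0.218, 5082 members were higher and 2668 lower, and with values rescaled to TPM, which moves it to -0.271, 2443 were higher and 5366 lower. The median as deposited was -0.004.

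**Figure D1:**
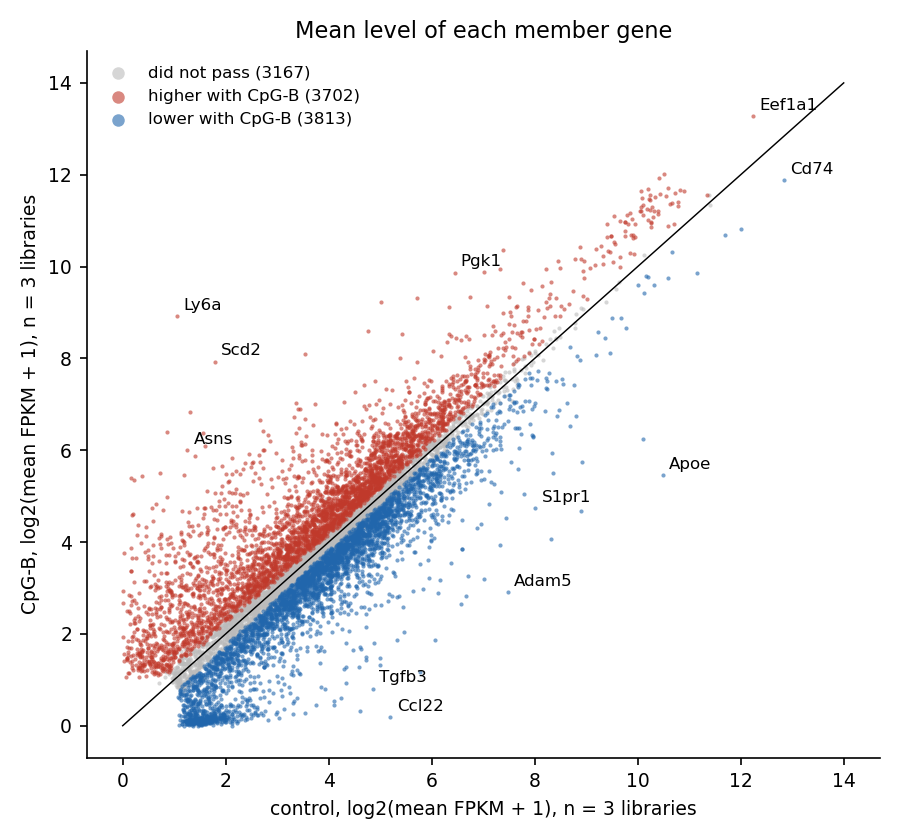
Mean level of each of the 10682 member genes in the control (x axis) and with CpG-B (y axis), both as log2(mean FPKM + 1) over 3 libraries; red points were higher, blue lower and grey did not pass, and the line marks equal levels. Ly6a and Scd2 stand far above the line, Apoe and Ccl22 far below it, and a cloud of blue points lies near 0 with CpG-B and between 1 and 2 log2 units in the control.

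Transcript length moved with the result. Members were split by transcript length into 4 bins of equal size. In the bin of the shortest, up to 2064 bases, 52.6% rose and 19.2% fell. In the bin of the longest, from 5177 bases, 18.3% rose and 52.5% fell. The medians of the log2 change in the 4 bins were 0.33, 0.07, -0.10 and -0.30, and among members at 10 FPKM or more in the higher group they were 0.39, 0.15, -0.06 and -0.30. Without CpG-B library 3 the 4 medians were 0.27, 0.06, -0.07 and -0.21. Ribosomal proteins and respiratory chain subunits have short transcripts, and the part of length in their rises was not tested.

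Low signal was higher in the controls, and many of the falls of low genes moved with it. The median of the unnamed loci, which the table lists apart from known genes, was 1.69, 2.37 and 1.15 FPKM in control libraries 1, 2 and 3 and 0.07, 0.06 and 0.08 in the CpG-B libraries. In 60.3% of these loci control 2 was highest and control 3 lowest, an order seen in 12.9% of members. Of the 1053 members lower by at least 2-fold, 467 had a control mean under 5 FPKM, and 52.9% of those showed that order. Of the 456 with a control mean of 10 FPKM or more, 10.1% did. With each library's unnamed-locus median subtracted, a choice made after seeing the data, the median change was 0.298, 4892 members were higher and 2042 lower, and at least 2-fold changes numbered 2093 and 508.

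Among genes of at least 10 FPKM in the higher group, the 10 highest log2 changes included those of Ly6a, Hist1h2ap, Scd2, Wfdc21, Slc16a3, H2-Q6, Atf3 and Cdh17. Ly6a, the gene of the stem cell antigen Sca-1, stood at 1.22, 1.24 and 0.75 FPKM in the controls and at 458, 468 and 530 with CpG-B. Its log2 change was 7.88 ± 0.32 (SE, adjusted p = 2.89e-09). The groups were far apart, and the 3 CpG-B libraries were close to each other. The table places Ly6a (gene 110454) on chromosome 15 from 74994877 to 75048896, minus strand, in the build mm10. Its relatives in the Ly6 family are similar enough for reads to be assigned to the wrong copy. Scd2, a stearoyl-CoA desaturase that makes monounsaturated fatty acids, was at 2.81, 2.05 and 2.48 FPKM in the controls and at 280, 286 and 163 with CpG-B. Its log2 change was 6.11 ± 0.22 (adjusted p = 1.22e-09), with CpG-B library 3 the lowest of its group.

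Slc16a3, the lactate exporter MCT4, was at 0.21, 0.15 and 0.13 FPKM and rose to 46.4, 41.8 and 31.4 (log2 5.12 ± 0.24, adjusted p = 9.14e-09). Atf3, a stress-induced bZIP factor, rose from 0.25, 0.23 and 0.4 FPKM to 39.5, 35.9 and 52.0. These genes were close to 0 in every control library and present in every CpG-B library. Cdh17, a cadherin of intestine and of some B cells, rose from 1.9, 1.8 and 2.19 FPKM to 90.4, 89.6 and 67.0. Wfdc21, a secreted protein with a whey acidic protein domain, had the CpG-B values 148, 140 and 51.8 FPKM against 1.39 to 1.56 in the controls, with library 3 well below the others. For 2 of these 8 the controls differed widely: Hist1h2ap, a replication-dependent histone, was at 32.0, 0 and 0 FPKM in the controls and 240, 205 and 374 with CpG-B, and H2-Q6, a non-classical MHC class I gene, was at 6.09, 0 and 0 FPKM and 54.3, 51.1 and 96.9. Both belong to families of near-identical copies, so how reads were divided between copies is uncertain.

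**Figure D2:**
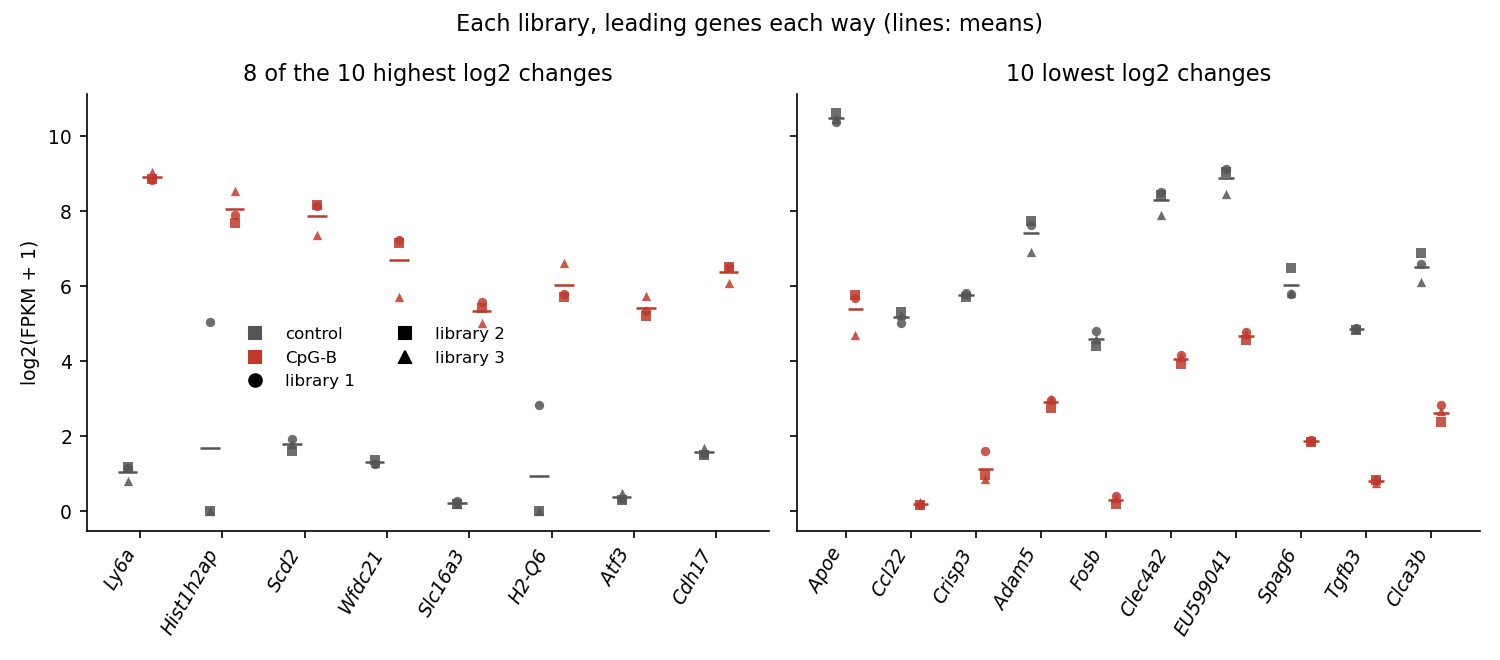
Level of 8 of the 10 genes with the highest log2 change (left) and of the 10 with the lowest (right), as log2(FPKM + 1) in each of 3 control (grey) and 3 CpG-B (red) libraries, with a line at each mean and a marker shape per library number. Absence of overlap between the groups was a condition for choosing these genes. Hist1h2ap and H2-Q6 are spread over the controls, and Scd2, Wfdc21 and Apoe have CpG-B library 3 below the other 2.

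Under the same rule the 10 lowest log2 changes were those of Apoe, Ccl22, Crisp3, Adam5, Fosb, Clec4a2, EU599041, Spag6, Tgfb3 and Clca3b. Apoe, the apolipoprotein that carries cholesterol out of cells, was at 1324, 1564 and 1404 FPKM in the controls and at 50.7, 53.8 and 24.8 with CpG-B. Its log2 change was -5.09 ± 0.30 (adjusted p = 4.78e-08). It was among the abundant RNAs of the control cells and lay more than an order of magnitude lower in each CpG-B library. The table places Apoe (gene 11816) on chromosome 7 from 19696244 to 19699188, minus strand. Ccl22, a chemokine that attracts regulatory and helper T cells through CCR4, was at 31.2, 39.0 and 36.8 FPKM and fell to 0.12, 0.12 and 0.19 (log2 -5.00 ± 0.21, adjusted p = 3.9e-09). Tgfb3, a TGF-β ligand, fell from 28.8, 27.3 and 28.2 FPKM to 0.79, 0.77 and 0.68 (log2 -4.06 ± 0.09, adjusted p = 6.93e-11). Crisp3, a cysteine-rich secretory protein, fell from 55.8, 51.9 and 54.0 FPKM to 2.02, 0.95 and 0.8, and Fosb, an AP-1 subunit of the early response, from 26.7, 20.2 and 23 FPKM to 0.31, 0.13 and 0.28.

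In the other 5 the ratios of the group means were close to those of the unnamed loci. The median of the loci fell 5.01-fold from control to CpG-A and 4.95-fold from CpG-A to CpG-B. The 2 ratios were 5.13 and 5.30 for Adam5, 4.25 and 4.77 for Clec4a2, 4.24 and 4.57 for EU599041, 5.57 and 4.48 for Spag6, and 4.54 and 3.92 for Clca3b. Adam5, a sperm-associated membrane protein, was at 196, 215 and 120 FPKM in the controls and at 6.79, 5.79 and 6.95 with CpG-B, and control 3 was again the lowest. Adam5 and Clca3b had the control order of most loci, with control 2 highest and control 3 lowest, whereas Clec4a2, EU599041 and Spag6 shared it in part. Control 3 was lowest but control 1 highest for Clec4a2 (366, 348 and 240 FPKM) and EU599041 (558, 526 and 352). For Spag6 (54.4, 88.7 and 55.3 FPKM) control 2 was highest, with controls 1 and 3 nearly equal. For Apoe the ratios were 2.93 and 11.3, for Tgfb3 2.39 and 15.7 and for Ccl22 1.86 and 133. For Crisp3 they were 2.93 and 14.6, and for Fosb, which fell more to CpG-A, 11.4 and 8.51. What the similar ratios come from was not tested.

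**Figure D3:**
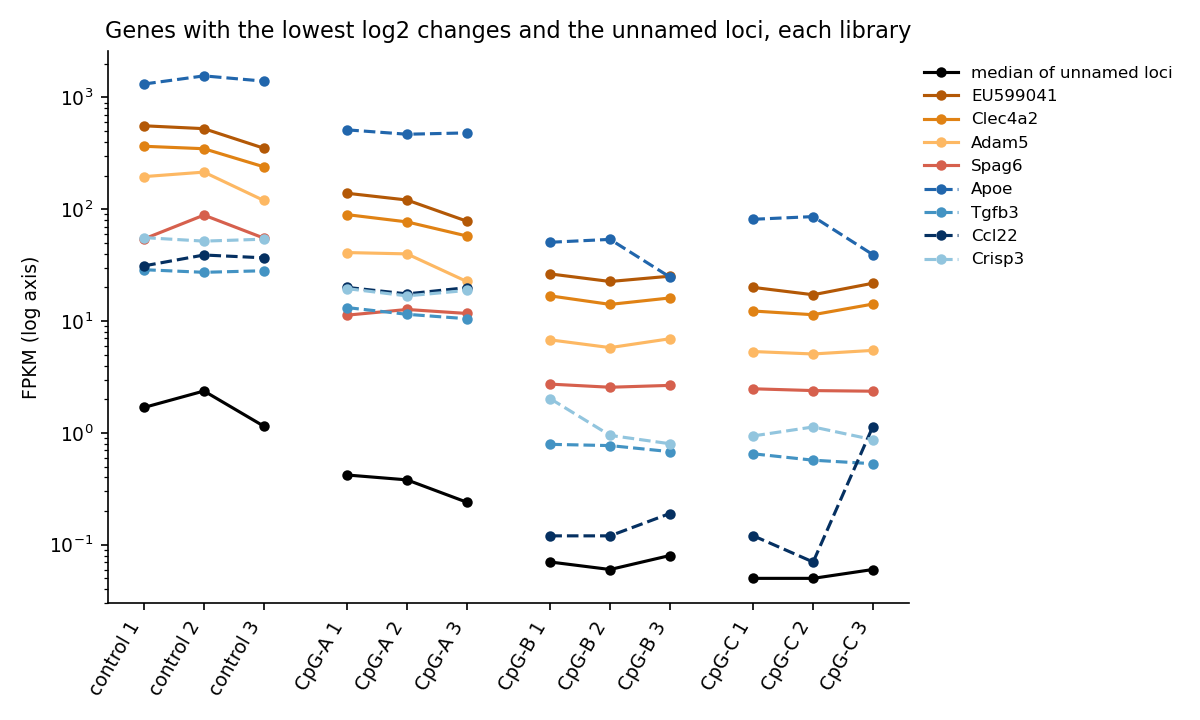
FPKM on a log axis in each of the 12 libraries, for the median of the unnamed loci (black), 4 of the lowest genes whose group means have ratios close to its own (orange and red, solid) and 4 whose ratios differ (blue, dashed). The solid lines step down from control to CpG-A and to CpG-B by ratios near 5.01 and 4.95, with control libraries in differing order, while Apoe, Tgfb3, Ccl22 and Crisp3 fall less to CpG-A and more to CpG-B.

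Some genes were off in one group. In 11 members every control library was under 0.5 FPKM and every CpG-B library at 10 FPKM or more, among them Atf3, Slc16a3, Tmed6, Klk4, Ifi44, Pcbd1, Rsph1, Shisa3, Tnip3 and Cox6a2. Klk4, a serine protease of the kallikrein family, went from 0, 0.19 and 0.2 FPKM to 22.3, 26.4 and 20.3. Rsph1, a radial spoke protein of motile cilia, went from 0.13, 0 and 0.22 FPKM to 14.3, 12.8 and 14. Pcbd1, a pterin dehydratase, went from 0.19, 0.19 and 0.48 FPKM to 16.4, 16.2 and 11.5. Tnip3, an inhibitor of NF-κB signalling, stood at 0.14 to 0.25 FPKM and rose to 12.7, 11.6 and 10.5, and Shisa3, an endoplasmic reticulum protein known to dampen Wnt signalling, stood at 0 to 0.04 FPKM and rose to 10.1, 10.7 and 16.8. In the opposite direction 3 members met the rule: Ccl22, Fosb and Slc5a11, a sodium-dependent inositol transporter with control values of 11.2, 24.7 and 12.8 FPKM and CpG-B values of 0.47, 0.33 and 0.32. Control 2 was highest for Slc5a11, as at the unnamed loci.

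The most abundant RNAs changed places. Eef1a1, the elongation factor that brings aminoacyl-tRNA to the ribosome, was at 4778, 4710 and 5028 FPKM in the controls and 9232, 9636 and 10820 with CpG-B (log2 1.03 ± 0.10, adjusted p = 1.23e-06), which made it the highest gene with CpG-B. Cd74, the invariant chain of MHC class II, led the controls at 7232, 7363 and 7401 FPKM and fell to 3946, 3991 and 3349 (log2 -0.97 ± 0.13, adjusted p = 1.9e-05). The class II chain genes H2-Aa (log2 -1.18 ± 0.14) and H2-Ab1 (log2 -1.31 ± 0.12) fell with it. Tpt1 at 2565 to 2826 FPKM in the controls (log2 0.16 ± 0.08, adjusted p = 0.101) and Rps27 (log2 -0.08 ± 0.09, adjusted p = 0.468) did not pass. Actb and Tmsb4x, which organise the actin cytoskeleton, passed at log2 0.24 ± 0.08 and 0.23 ± 0.09, but stood at -0.06 each when rescaled to TPM. Neither passed in the fit of the 6 libraries alone (adjusted p = 0.0607 and 0.081), Actb did not pass without CpG-B library 2 or control library 2, and Tmsb4x not without CpG-B library 1 or 2 or control library 1 or 3, at log2 changes of 0.17 to 0.23. The 100 most abundant members took 28.2% to 29.2% of the summed FPKM in the controls and 36.2% to 37.8% with CpG-B.

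Cytosolic ribosomal proteins rose almost without exception. Of 78 members 74 rose and 1 fell, and 3 did not pass. Their log2 changes had a median of 1.04, and 70 were still higher when rescaled to TPM. Their share of the summed FPKM was 16.2% ± 0.423 in the controls and 26.4% ± 1.06 with CpG-B (SD, n = 3; exact two-sided permutation p = 0.1, the smallest that 3 against 3 allows). Rpl28, of the large subunit, went from 1479, 1283 and 1327 FPKM to 3731, 3701 and 4340. Rpl41, which encodes a very short peptide of the large subunit, went from 815, 1294 and 1087 FPKM to 2840, 2985 and 3823, and Rpl10a from 778, 731 and 722 to 2028, 2040 and 2575. Every CpG-B library was above every control in these genes. Over all members 75.0% had no overlap between the groups, in either direction. The exception was Rpl26, listed at 3.18, 7.9 and 5.15 FPKM in the controls and at 1.36, 0.86 and 2.65 with CpG-B (log2 -1.28 ± 0.40, adjusted p = 0.0113), far under the other members. It did not pass without control library 2 (log2 -1.01, adjusted p = 0.059) or with the unnamed-locus median subtracted (adjusted p = 0.122), and reads of ribosomal protein genes can be shared with pseudogenes.

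Ribosome assembly factors moved less than the ribosomal proteins themselves. Of 30 biogenesis genes 11 rose, 1 fell and 18 did not pass (median 0.28), and when rescaled to TPM 4 were higher and 5 lower. The rises were 36.7% of the list, near the 34.7% of all members, and the falls 3.33% against 35.7%. Npm1, the nucleolar chaperone nucleophosmin, rose from 308, 344 and 306 FPKM to 699, 697 and 1028 (log2 1.32 ± 0.18, adjusted p = 2.79e-05), while Ubtf, the activator of ribosomal RNA transcription, fell by 0.28 on the log2 scale but by 0.04 with median-of-ratios scaling (adjusted p = 0.7). Without CpG-B library 3, 5 of the 30 rose. Of 52 translation initiation factors and their regulators 36 rose and 4 fell (24 and 7 when rescaled to TPM). Eif2ak2, the interferon-induced kinase PKR and such a regulator, stood at log2 2.61 ± 0.24, and the factor Eif2s2 at 1.24 ± 0.20. Eif4a2, a helicase paralogue, fell from 231, 270 and 242 FPKM to 125, 122 and 111. Of 77 mitochondrial ribosomal proteins 64 rose and 2 fell (median 0.60), or 41 and 3 when rescaled to TPM (median 0.31), such as Mrpl45 at log2 1.70 ± 0.08. Mrpl39, which fell by 2.22, stood at 96.7, 197 and 116 FPKM in the controls, with control 2 the highest.

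Glucose metabolism rose at almost every step. Of 25 members of the list of glucose uptake and glycolysis, 22 rose and 1 fell, and 2 did not pass. The median of their log2 changes was 1.74, against -0.004 over all members. Their share of the summed FPKM was 0.336% ± 0.012 in the controls and 1.22% ± 0.0269 with CpG-B (SD, n = 3, exact permutation p = 0.1). Pgk1, phosphoglycerate kinase, was at 86.6, 88.1 and 83.7 FPKM in the controls and 952, 902 and 947 with CpG-B (log2 3.42 ± 0.09, adjusted p = 2.21e-10). The libraries of each group were nearly equal, and the groups lay far apart. Slc16a3, described above, exports the lactate that glycolysis yields, and Eno2, the neuronal enolase, rose from 0.15 to 0.26 FPKM to 23.6, 19.9 and 7.08 (log2 3.74 ± 0.54). Slc2a6, a lysosomal glucose transporter family member, went the other way, from 18.6, 15.5 and 18.4 FPKM to 11.6, 11.3 and 9.79 (log2 -0.64 ± 0.10). The list's major importer in lymphocytes, Slc2a1, was at log2 0.55, below the median of the list, and did not pass when rescaled to TPM (log2 0.26, adjusted p = 0.168).

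Genes of the hypoxia response rose too. Of 19 members 14 rose, 1 fell and 4 did not pass (median 0.83). Vegfa, the endothelial growth factor, went from 0.59, 0.74 and 0.7 FPKM to 13.5, 12.4 and 25.2 (log2 3.36 ± 0.21). Ankrd37, a classical target of hypoxia-inducible factor (HIF), went from 5.27, 5.99 and 4.79 FPKM to 59.1, 45.3 and 54.2 (log2 3.08 ± 0.20, adjusted p = 8.17e-08). Hif1a itself, the oxygen-regulated subunit of HIF, fell from 27.0, 27.1 and 27.3 FPKM to 21.2, 20.6 and 15.9 (log2 -0.49 ± 0.10, adjusted p = 0.000593). Vegfa and Ankrd37 were not raised by CpG-A, at 0.46 to 0.59 and 4.87 to 5.22 FPKM, and CpG-B exceeded CpG-A in them by 3.48 and 3.15 log2 units (adjusted p = 3.06e-07 and 4.04e-07). Slc16a3, at 0.06 to 0.17 FPKM with CpG-A, differed by 5.17 (adjusted p = 5.33e-08).

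The promoters of Pgk1 and Slc16a3 are shown because both genes are among the largest rises of the glycolytic list and both carry the core of the HIF-binding element, ACGTG on either strand, more than once. Each runs from 250 bases before to 50 bases after the RefSeq start in GRCm38.p6, 5′ to 3′ on the gene's strand, and capitals mark ACGTG or its complement. Pgk1 lies on the plus strand at chrX:106186850-106187149 and Slc16a3 on the plus strand at chr11:120948817-120949116.
Pgk1: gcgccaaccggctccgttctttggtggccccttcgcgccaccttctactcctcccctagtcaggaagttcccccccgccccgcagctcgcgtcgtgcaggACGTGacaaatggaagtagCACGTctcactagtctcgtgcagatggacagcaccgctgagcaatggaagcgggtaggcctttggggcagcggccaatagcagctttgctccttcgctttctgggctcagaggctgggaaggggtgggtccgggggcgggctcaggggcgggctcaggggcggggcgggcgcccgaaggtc
Slc16a3: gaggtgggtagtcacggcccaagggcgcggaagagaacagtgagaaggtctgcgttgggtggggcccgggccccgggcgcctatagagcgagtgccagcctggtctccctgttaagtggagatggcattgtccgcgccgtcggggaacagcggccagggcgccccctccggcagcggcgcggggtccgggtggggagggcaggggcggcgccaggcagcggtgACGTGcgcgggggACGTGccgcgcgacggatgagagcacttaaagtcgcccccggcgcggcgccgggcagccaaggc
The element occurred in 14 of 24 glycolysis promoters (58.3%) and in 11 of 16 hypoxia promoters (68.8%), against 29.9% of the 8691 members with a promoter in the table and 21.8% of 27025 genes. It also lies within the E-box CACGTG, which was found in 4 and 2 of them. A match is a string of letters and says nothing of binding.

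**Figure D4:**
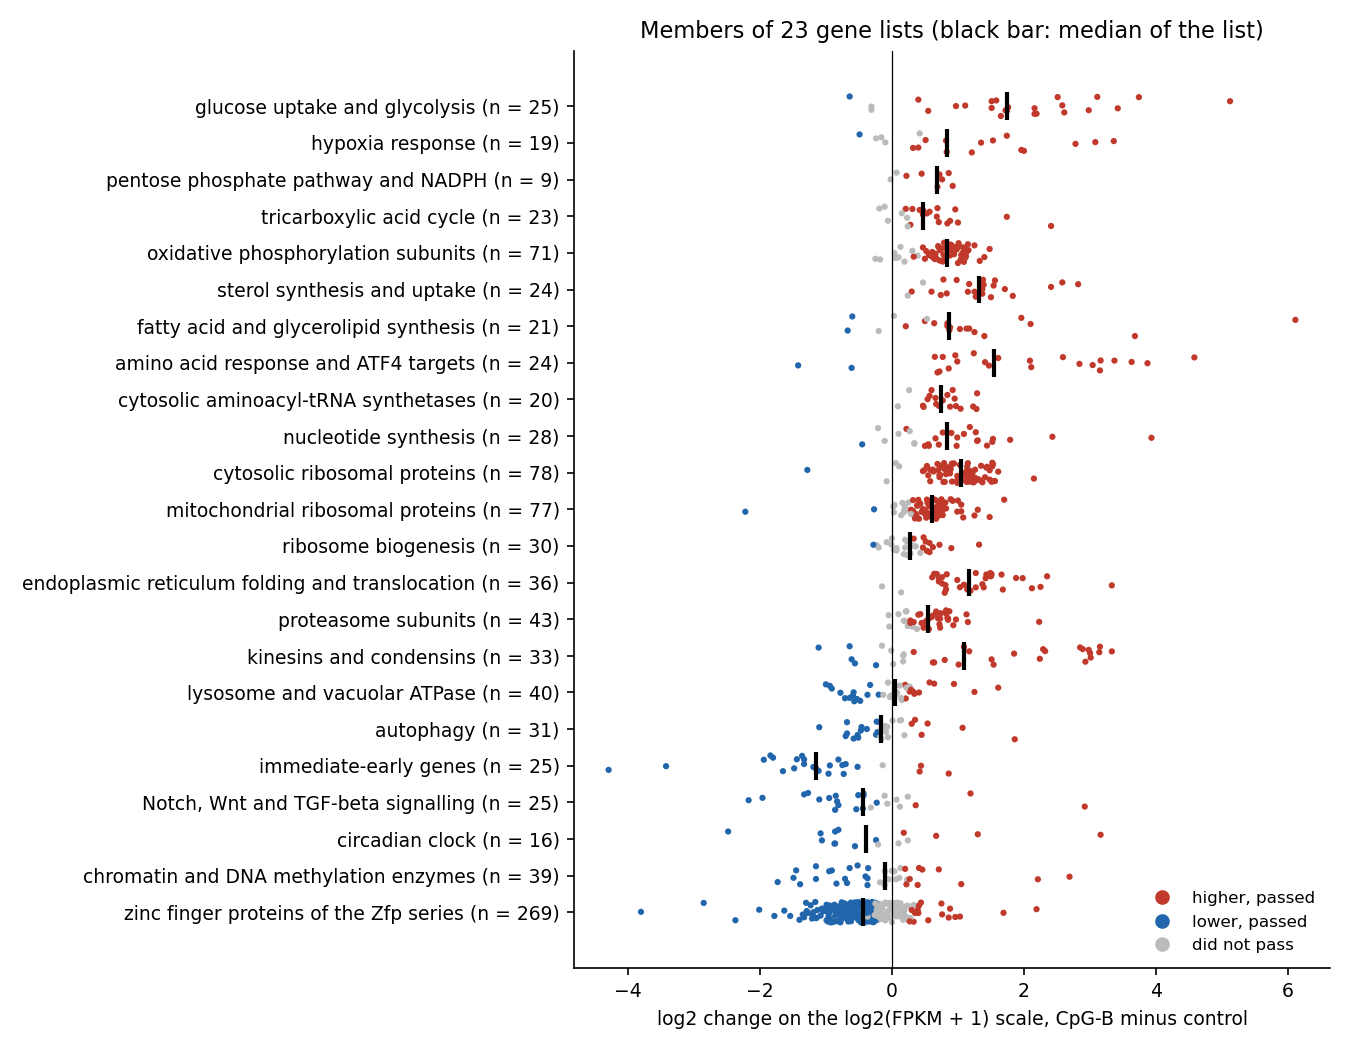
Log2 change (x axis, log2(FPKM + 1) scale, CpG-B minus control) of each member of 23 gene lists, red where higher, blue where lower, grey where it did not pass, with a black bar at the list's median. Glycolysis and the ATF4 list have medians of 1.74 and 1.54, immediate-early genes of -1.15, and the lysosome list has members on both sides of 0.

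Mitochondrial energy genes rose by less. Of 71 subunits of oxidative phosphorylation, which form the respiratory chain and ATP synthase, 62 rose and 9 did not pass (median 0.83), with Ndufv3 from 26.9, 33.0 and 31.5 FPKM to 83.3, 84.6 and 91.3. Of 23 genes of the tricarboxylic acid cycle 17 rose and 6 did not pass (median 0.47, and 11 higher with 3 lower when rescaled to TPM). Suclg2, a subunit of succinyl-CoA ligase, went from 8.68, 9.8 and 10.6 FPKM to 59.6, 59.2 and 49.1 (log2 2.41 ± 0.12, adjusted p = 1.03e-08), and Idh2, the mitochondrial isocitrate dehydrogenase, from 7.94, 10.4 and 9.74 to 35.6, 37.1 and 28.1. Both stood apart from Cs, citrate synthase, at log2 1.00 ± 0.07. Of 9 genes of the pentose phosphate pathway and NADPH 7 rose and 0 fell, or 4 and 2 when rescaled to TPM, such as Tkt, transketolase (log2 0.92 ± 0.11).

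Sterol synthesis rose as a block. Of 24 members 22 rose, 0 fell and 2 did not pass (median 1.32), and 18 were still higher when rescaled to TPM. Fdps, farnesyl diphosphate synthase, went from 27.5, 32.7 and 26.1 FPKM to 199, 214 and 128 (log2 2.58 ± 0.17, adjusted p = 1.04e-07). Mvd, mevalonate diphosphate decarboxylase, went from 9.84, 9.08 and 10.2 FPKM to 68.6, 71.5 and 35.4 (log2 2.41 ± 0.25). Tm7sf2, a sterol C14 reductase, was listed at 0 in every control library and at 6.89, 9.98 and 3.06 FPKM with CpG-B. CpG-B library 3 was below the other 2 in 23 of the 24 members, by a median of 0.96 log2 units, yet above the controls in the 3 genes named. Without that library 24 of 24 rose, with a median of 1.63. Of 21 genes of fatty acid and glycerolipid synthesis 16 rose and 2 fell (median 0.87). Scd1, the paralogue of Scd2, went from 84.6, 74.6 and 85.3 FPKM to 386, 387 and 294, and Fads2, the delta-6 desaturase, from 0.29 to 0.4 FPKM to 25.7, 25.2 and 6.51. Dgat1, which makes triglyceride, fell by 0.67.

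Genes of cholesterol export moved in both directions. Of 9 genes of efflux and LXR targets 4 rose and 5 fell, among the latter Apoe, Abca1, the transporter that loads lipid onto apolipoproteins (9.18, 7.1 and 8.65 FPKM to 2.9, 2.84 and 3.38), and Mylip, the ubiquitin ligase that removes the LDL receptor (log2 -1.06 ± 0.12). Abcg1, a second exporter, rose from 1.34, 1.59 and 1.47 FPKM to 7.81, 8.22 and 15.8 (log2 2.17 ± 0.20, adjusted p = 1.34e-06).

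Promoters of Mvd and Tm7sf2 are shown as leading sterol genes with a CCAAT box, the site of NF-Y, a factor known to work beside the sterol-regulated SREBP proteins. Capitals mark CCAAT or its complement. Mvd lies on the minus strand at chr8:122443373-122443672 and Tm7sf2 on the minus strand at chr19:6067801-6068100.
Mvd: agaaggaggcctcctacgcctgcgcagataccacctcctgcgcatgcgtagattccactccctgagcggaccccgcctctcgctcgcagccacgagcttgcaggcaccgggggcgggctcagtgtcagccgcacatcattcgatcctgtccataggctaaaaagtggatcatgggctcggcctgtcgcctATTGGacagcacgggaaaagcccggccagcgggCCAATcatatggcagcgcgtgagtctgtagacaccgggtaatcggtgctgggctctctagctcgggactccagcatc
Tm7sf2: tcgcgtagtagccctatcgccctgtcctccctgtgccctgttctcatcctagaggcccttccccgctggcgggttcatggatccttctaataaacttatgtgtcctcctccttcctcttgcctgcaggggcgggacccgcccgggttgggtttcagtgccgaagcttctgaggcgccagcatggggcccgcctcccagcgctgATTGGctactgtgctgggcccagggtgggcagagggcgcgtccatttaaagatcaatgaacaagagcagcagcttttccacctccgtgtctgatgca
A CCAAT box was found in 16 of the 17 sterol genes with a promoter (94.1%), in 11 of 17 of fatty acid synthesis (64.7%), in 43.6% of members and in 41.1% of all genes. The sterol regulatory element in the form TCACNCCAC, where N is any base, was found in 1 of the 17 and in 1.35% of members.

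Amino acid supply and the response to its shortage rose strongly. ATF4 is a transcription factor that is translated when the kinases of the integrated stress response are active and that induces amino acid transporters and synthetic enzymes. Of 24 members of that list 22 rose and 2 fell (median 1.54). Asns, asparagine synthetase, was at 1.83, 0.85 and 1.5 FPKM in the controls and at 38.2, 40.3 and 111 with CpG-B (log2 4.58 ± 0.35, adjusted p = 3.43e-07). Chac1, which degrades glutathione, went from 0.51, 0.28 and 0.67 FPKM to 13.0, 12.7 and 51.8 (log2 3.87 ± 0.44), and Slc7a3, a cationic amino acid transporter, from 0.25, 0.62 and 0.21 to 12, 12.9 and 24.8. CpG-B libraries 1 and 2 lay close together in these genes, and library 3 was the highest. Slc38a2, a neutral amino acid transporter that ATF4 is known to induce, fell from 91.1, 76 and 90.3 FPKM to 52.2, 53.1 and 62.7 (log2 -0.61 ± 0.10). The 20 cytosolic aminoacyl-tRNA synthetases, which charge tRNAs, held 18 that rose and 2 that did not pass (median 0.74), with Aars at 30.8, 29.4 and 29.8 FPKM in the controls and 59.2, 60.3 and 116 with CpG-B.

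Promoters of Asns and Chac1 are shown because they lead the ATF4 list and hold the C/EBP-ATF response element, searched as TGATGNAA on both strands and marked in capitals. Asns lies on the minus strand at chr6:7693160-7693459 and Chac1 on the plus strand at chr2:119350992-119351291.
Asns: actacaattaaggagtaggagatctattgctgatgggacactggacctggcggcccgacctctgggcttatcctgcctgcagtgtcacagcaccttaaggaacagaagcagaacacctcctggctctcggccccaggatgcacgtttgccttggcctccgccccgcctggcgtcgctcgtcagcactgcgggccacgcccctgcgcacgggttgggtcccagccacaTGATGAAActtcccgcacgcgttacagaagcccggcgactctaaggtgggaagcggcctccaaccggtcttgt
Chac1: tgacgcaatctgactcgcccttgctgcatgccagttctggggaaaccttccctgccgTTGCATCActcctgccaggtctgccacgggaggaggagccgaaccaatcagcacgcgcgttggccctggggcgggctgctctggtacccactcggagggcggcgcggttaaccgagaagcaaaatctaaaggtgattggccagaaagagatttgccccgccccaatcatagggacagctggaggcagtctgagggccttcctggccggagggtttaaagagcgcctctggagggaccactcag
The element occurred in 6 of the 20 ATF4-list genes with a promoter (30%), against 2.72% of members and 4.51% of all genes.

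**Figure D5:**
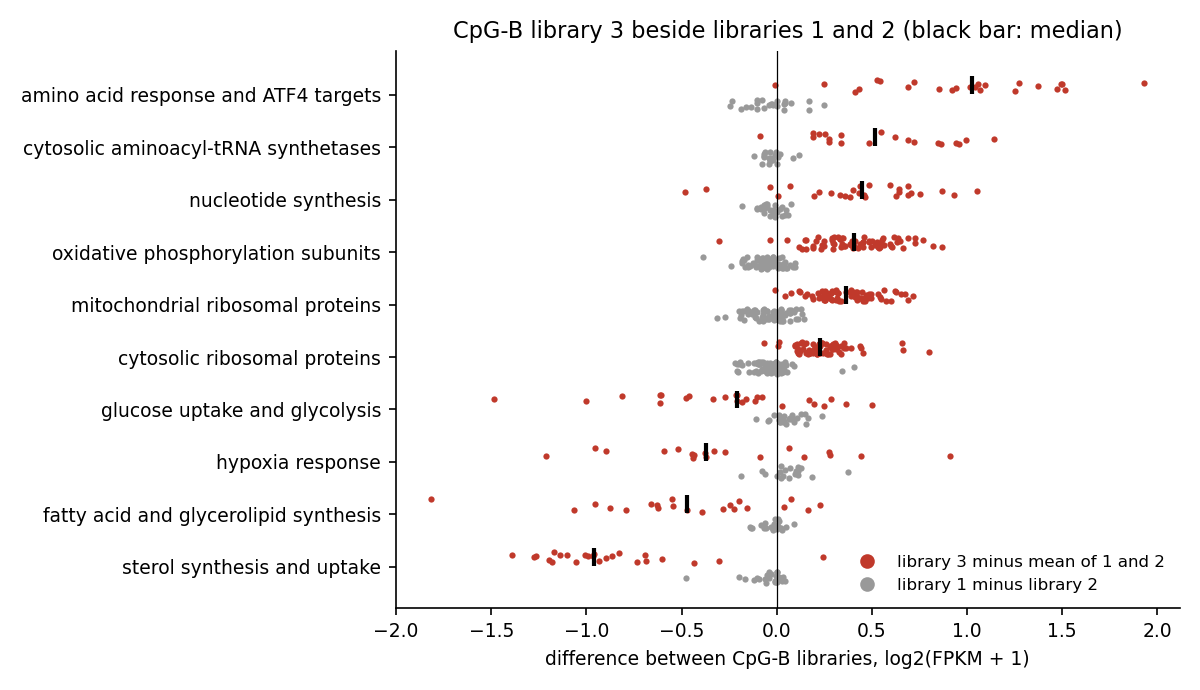
Difference between CpG-B libraries in log2(FPKM + 1), for members of 10 lists: library 3 minus the mean of libraries 1 and 2 (red, with a black bar at the median) and library 1 minus library 2 (grey). Libraries 1 and 2 lie close to 0 in every list, and library 3 is higher by a median of 1.03 in the ATF4 list and lower by 0.96 in the sterol list.

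CpG-B library 3 stood apart in an ordered way. Over all members it was above both others in 4492 and below both in 5248. It was above both in 23 of 24 ATF4-list genes, 19 of 20 synthetases, 69 of 71 oxidative phosphorylation subunits and 76 of 77 mitochondrial ribosomal proteins. It was below both in 17 of 21 genes of fatty acid synthesis, 18 of 25 of glycolysis and 188 of 269 Zfp genes. CpG-C library 3 showed the same sign, above both its partners in 20 of the 24 ATF4-list genes and below both in 22 of the 24 sterol genes. Library 3 differed at least 2-fold from both others in 88 members, libraries 1 and 2 in 0 and 2. The rises named above kept their direction without it: Asns had a log2 change of 4.09, Chac1 of 3.23, Scd2 of 6.37 and Mvd of 2.73. What set this library apart was not tested.

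Genes of DNA synthesis and division rose. Of 28 genes of nucleotide synthesis 21 rose and 1 fell (median 0.83), led by Rrm2, the ribonucleotide reductase subunit, from 5.69, 4.44 and 6.02 FPKM to 75.0, 78.6 and 147 (log2 3.93 ± 0.26, adjusted p = 1.08e-07). Tk1, thymidine kinase, went from 8.79, 9.3 and 8.71 FPKM to 41.7, 40.4 and 86.2. Of 12 genes of folate and one-carbon metabolism 8 rose and 3 fell, with Mthfd2, a mitochondrial enzyme of the formate pathway, from 10.4, 8.31 and 9.17 FPKM to 50.4, 49.9 and 144, and Mtr, methionine synthase, lower by 0.70. Of 13 polyamine genes 7 rose and 2 fell (4 and 3 when rescaled to TPM). Srm, spermidine synthase, was higher with CpG-A (75.6 to 85.1 FPKM) than with CpG-B (35.8, 37.1 and 55.4), by 0.95 log2 units (adjusted p = 0.0149), and stood at 16.8 to 21.3 in the controls. Sat1, which acetylates polyamines for export, fell by 1.22.

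Among 33 kinesins and condensins 22 rose and 5 fell (median 1.09). The list holds motors and chromosome-folding complexes of mitosis, and also kinesins with other roles, such as Kif5b. Kif22 went from 3.51, 3.7 and 2.94 FPKM to 37.1, 39.7 and 53.9 (log2 3.33 ± 0.14, adjusted p = 3.84e-09) and Kif23, of the central spindle, from 2.92, 2.64 and 2.76 to 31.0, 31.8 and 34.0. Kif21b, a kinesin of interphase cells, fell by 1.11. Of 37 DNA repair genes 22 rose and 4 fell, or 18 and 10 when rescaled to TPM, such as Rad54l (log2 2.24 ± 0.16) of homologous recombination, with Atm, the kinase of double-strand breaks, lower by 0.68. Of 18 p53 targets 9 rose and 3 fell, or 8 and 6 when rescaled to TPM: Cdkn1a, the cell cycle inhibitor p21, went from 1.7, 1.32 and 1.35 FPKM to 10.1, 10.4 and 11.4, and Plk3, a polo-like kinase, from 37.8, 30.1 and 35.1 to 6.22, 5.68 and 4.75 (log2 -2.43 ± 0.11). Of 74 histone genes 28 were members, 13 higher and 8 lower (11 and 11 when rescaled to TPM). H2afx, the variant phosphorylated at breaks, rose from 25.6, 25.9 and 22.4 FPKM to 151, 152 and 208, and Hist2h2bb fell by 2.2.

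The promoter of Kif22, the highest of the mitotic motors here, carries the core TTTGAA of the cell cycle homology region in 2 places, a site through which the DREAM complex holds such genes off in resting cells. This motif was added to the search after the data had been seen. Capitals mark it or its complement, and the promoter lies on the minus strand at chr7:127042371-127042670.
Kif22: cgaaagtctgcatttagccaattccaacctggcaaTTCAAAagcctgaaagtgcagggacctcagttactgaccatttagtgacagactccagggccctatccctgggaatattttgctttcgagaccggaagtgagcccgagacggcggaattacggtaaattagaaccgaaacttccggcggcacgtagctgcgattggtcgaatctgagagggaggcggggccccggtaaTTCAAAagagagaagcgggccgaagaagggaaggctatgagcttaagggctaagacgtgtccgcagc
The letters occurred in 14 of 27 promoters of kinesins and condensins (51.9%), in 14.5% of members and in 20.2% of all genes.

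Genes of the secretory pathway rose. Of 36 genes of folding and translocation in the endoplasmic reticulum 34 rose, 0 fell and 2 did not pass (median 1.17), 34 of them also when rescaled to TPM. Their share of the summed FPKM went from 0.41% ± 0.0114 to 0.767% ± 0.00698 (SD, n = 3, exact permutation p = 0.1). Xbp1, the transcription factor of the unfolded protein response, went from 26.2, 20.1 and 27.9 FPKM to 105, 105 and 159 (log2 2.25 ± 0.19), and Derl3, a degradation factor induced by it, from 4.53, 4.68 and 3.39 to 47.3, 46.0 and 61.2 (log2 3.33 ± 0.14). A CCAAT box, which is also part of the endoplasmic reticulum stress element, was in 22 of the 28 of these genes with a promoter (78.6%). Of 29 N-glycosylation genes 18 rose and 4 fell, with Rpn1, a subunit of oligosaccharyltransferase, at log2 1.21 ± 0.08. Of 43 proteasome subunits 32 rose and 11 did not pass (median 0.55), or 20 were higher and 2 lower when rescaled to TPM, and Psmd14, the deubiquitinase of the lid, rose most, from 30.9, 35.3 and 34.2 FPKM to 144, 152 and 189. Of 29 ubiquitin-conjugating enzymes 18 rose and 2 fell, or 9 and 9 when rescaled to TPM; Ube2c, which works with the anaphase-promoting complex, rose by 3.63 ± 0.17. Of 21 chaperones 15 rose and 2 fell, or 12 and 6 when rescaled to TPM, with Hspe1, the mitochondrial co-chaperonin, at log2 1.56 ± 0.17.

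Lysosome, autophagy and membrane lipid genes moved in both directions, and the balance turned with the scale. The medians of the lysosomal and sphingolipid lists were 0.05 and 0.06, above 0, although more members fell than rose. Of 40 lysosomal members 12 rose and 14 fell, against 24 and 9 with median-of-ratios scaling and 4 and 20 when rescaled to TPM. Grn, progranulin, rose from 45.3, 42.4 and 43.7 FPKM to 142, 146 and 120 (log2 1.61 ± 0.08), and Psap, the saposin precursor, fell from 324, 350 and 346 to 200, 198 and 147 (log2 -0.91 ± 0.15). Of 31 autophagy genes 6 rose and 14 fell, or 10 and 9 with median-of-ratios scaling; Optn, a receptor of selective autophagy, rose by 1.86 ± 0.12 and Calcoco1 fell by 1.10. Of 21 sphingolipid and phospholipid enzymes 4 rose and 6 fell, or 11 and 3 with median-of-ratios scaling, with Cers4, a ceramide synthase, lower by 1.32. Of 23 antioxidant genes 10 rose and 7 fell, or 7 and 11 when rescaled to TPM. Nqo1, a quinone reductase under NRF2, fell from 9.38, 9.36 and 9.76 FPKM to 1.73, 1.88 and 0.39 while CpG-A libraries held 22.8 to 24.3, and Prdx4, the peroxiredoxin of the endoplasmic reticulum, rose by 1.80 ± 0.12. Of 24 genes of metal handling 9 rose and 6 fell, or 5 and 9 when rescaled to TPM, with Mt1, a metallothionein, at 0.72, 1.15 and 1.66 FPKM in the controls and 5.1, 3.56 and 15.9 with CpG-B.

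Cytoskeletal and membrane-associated proteins were mixed. Of 30 tubulin, actin and intermediate filament genes 18 rose and 4 fell, or 10 and 8 when rescaled to TPM; Lmnb1, a nuclear lamin, rose by 2.13 ± 0.15, and Actn1, an actin crosslinker, fell by 1.79. Of 19 annexins, galectins and S100 proteins 8 rose and 4 fell, or 7 and 11 when rescaled to TPM. Lgals1, galectin-1, rose from 9.9, 10.8 and 8.62 FPKM to 92.1, 94.3 and 79.7 (log2 3.06 ± 0.10, adjusted p = 5.05e-10), and Lgals3, galectin-3, fell from 10.5, 9.55 and 9.36 to 3.35, 3.58 and 3.84 (log2 -1.23 ± 0.11). The pair moved in opposite directions. Neither overlapped between the groups, which was also so for 75.0% of all members. Of 51 splicing factors 25 rose and 7 fell, or 11 and 16 when rescaled to TPM, with Snrpf at log2 1.09 ± 0.20 and Srsf5 at -0.80 ± 0.19. Zfos1 was the 1 of 20 listed non-coding RNA genes analysed here, at log2 1.67 ± 0.16.

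Most genes of the immediate-early list fell. Many of them are switched on within minutes of a receptor signal, though not all, as the list also holds Klf2 and Btg1. After 24 h 21 of 25 members were lower with CpG-B, 3 higher and 1 did not pass (median -1.15). Fos, the partner of Jun in AP-1, went from 19.8, 16.9 and 21.2 FPKM to 0.88, 0.68 and 1.15 (log2 -3.42 ± 0.13, adjusted p = 2.24e-09). Egr2, a zinc finger factor of antigen receptor signalling, went from 21.0, 20.8 and 19.6 FPKM to 3.99, 3.91 and 6.19 (log2 -1.94 ± 0.20). Jun itself rose from 25.4, 24.3 and 25.6 FPKM to 45.9, 46.3 and 46.9 (log2 0.86 ± 0.07, adjusted p = 4.79e-07). Fos and Jun thus lay on opposite sides of their control levels.

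Lists of signalling genes and regulators moved in both directions, and the balance of several turned with the scale. Of 25 genes of Notch, Wnt and TGF-β signalling 16 fell and 3 rose (median -0.44), with Smad7, the inhibitory SMAD, from 19.8, 16.3 and 18.5 FPKM to 3.88, 3.68 and 2.35, and Ski, a SMAD corepressor, lower by 1.96. Notch1 was an exception, from 3.83, 3.16 and 3.14 FPKM to 34.9, 34.4 and 27.5 (log2 2.92 ± 0.12, adjusted p = 2.89e-09). Of 16 clock genes 9 fell and 4 rose, or 5 and 6 after subtraction of the unnamed-locus median: Nr1d2, the repressor REV-ERBβ, went from 12.7, 13.4 and 13.9 FPKM to 1.64, 1.55 and 1.5, and Nfil3, which opposes the PAR bZIP factors, from 0.64, 0.55 and 0.67 to 9.41, 8.34 and 30.4. Of 18 orphan and lipid G protein-coupled receptors 9 fell and 6 rose. S1pr1, the receptor that leads lymphocytes out of tissue, fell from 260, 241 and 269 FPKM to 29.2, 28.6 and 19.6 (log2 -3.29 ± 0.17, adjusted p = 2.01e-08), and Gpr55 rose by 1.49 ± 0.12. Of 10 RGS proteins, which shorten G protein signals, 4 fell and 1 rose, or 3 and 6 after that subtraction. Of 26 genes of PI3K, mTOR and FOXO signalling 11 fell and 4 rose, or 8 and 8 with median-of-ratios scaling. Of 27 genes of calcium and potassium handling 9 fell and 8 rose, or 6 and 14 with median-of-ratios scaling. The falls were 33.3% and the rises 29.6% of that list, near the 35.7% and 34.7% of all members. Orai2, a calcium channel subunit, went from 35.7, 33.0 and 36.5 FPKM to 11.7, 11.8 and 12.7. Of 5 arrestin-type genes 4 fell, such as Arrdc3 (log2 -1.71 ± 0.22).

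Zinc finger genes of the Zfp series held many more falls than rises, while the balance of the chromatin list turned with the scale. Of 39 chromatin and DNA methylation enzymes 17 fell and 10 rose, or 12 and 16 with median-of-ratios scaling: Smarca2, a chromatin remodelling ATPase, fell by 1.73, and Uhrf1, which maintains DNA methylation at replication forks, rose from 10.6, 9.75 and 9.52 FPKM to 60.5, 60.6 and 92.8. Of 334 genes of the Zfp series 269 were members, and 179 fell, 18 rose and 72 did not pass (median -0.44). With the unnamed-locus median subtracted, 82 fell and 53 rose. Zfp318, which is required for IgD expression, fell from 63.4, 54.5 and 61.9 FPKM to 13.3, 13.6 and 6.84, with controls in another order than the loci, whereas Zfp488 (99.2, 127 and 73.2 FPKM in the controls) followed their order. Zfp53 rose from 25.6, 28.9 and 25.4 FPKM to 138, 135 and 105 (log2 2.19 ± 0.11).

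Some changes were shared by neighbours on the chromosome. Members next to each other, no more than 100 kb apart and all changed by at least 2-fold in 1 direction, formed 35 runs of 3 or more, 6 of them with 4 or more genes. Over all members 11.2% rose and 9.86% fell by at least 2-fold. How many runs these shares alone would give was not computed, so the 35 do not show an effect of position. On chromosome 10 from 75771233 to 75895941, Ddt, Gstt3, Gstt1, Gstt2, Mif and Derl3 were all higher, by 1.46 to 3.33 log2 units. They join a tautomerase pair, glutathione transferases and the degradation factor described above, and Mif, the macrophage migration inhibitory factor, went from 86.5, 73.6 and 77.9 FPKM to 486, 506 and 675. On chromosome 7 from 3709085 to 3915501, Pirb, 4 Pira genes and Lilra6, which encode paired immunoglobulin-like receptors, were lower by 1.35 to 1.85. Pirb, the inhibitory receptor of the set, fell from 14.5, 14.4 and 18 FPKM to 4.87, 5.08 and 3.4. On chromosome 15 Them6, Lynx1, Ly6d and Ly6k were higher, with Ly6d from 56.3, 49.5 and 49.2 FPKM to 730, 772 and 419. On chromosome 3 the guanylate-binding proteins Gbp7, Gbp3, Gbp2b and Gbp2 were higher by 1.19 to 1.78. On chromosome 8 the zinc finger genes Zfp868, Zfp964, Zfp869 and Zfp963 were lower by 1.04 to 1.33, and so were Arl2bp and the chemokines Ccl22, Cx3cl1 and Ccl17. Several of these runs are families of similar sequence, between which reads can be shared.

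CpG-B was set against the other classes in the same fit. Against CpG-A 1877 members were higher (17.6%) and 3133 lower (29.3%), and against CpG-C 10 were higher (0.0936%) and 18 lower (0.169%). Among genes described above, Scd2 exceeded its CpG-A level by 3.02 log2 units (adjusted p = 1.51e-06) and Cdh17 by 2.79, whereas Rrm2 differed by 0.51 (adjusted p = 0.114) and Sdf2l1, a chaperone of the endoplasmic reticulum, by 0.30 (adjusted p = 0.14). Against CpG-C, Egr2 was lower with CpG-B by 1.41 log2 units (adjusted p = 0.0162) and Jun higher by 0.53 (adjusted p = 0.0104). Of the 28 differences, 4 were of the immediate-early Egr and Nr4a genes, chosen for mention after their values were seen: Egr1 stood at 54.6 FPKM in the control, 27.9 with CpG-B and 51.4 with CpG-C, and Egr3 at 62.5, 16.8 and 37.2. Ddit3, the stress factor CHOP, was chosen in the same way, at 26.9, 50.2 and 26.1 FPKM, higher with CpG-B than CpG-C by 0.91 log2 units (adjusted p = 0.00868). The comparisons of the 2 classes with control share the control libraries. CpG-B and CpG-C could not be told apart in most members, which does not show that they act alike.

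Of the 8 markers of the B lineage 3 fell and 2 rose, or 1 and 3 with median-of-ratios scaling. The falls were 37.5% and the rises 25.0% of these markers, against 35.7% and 34.7% of all members. Cd79b fell by 0.41, or by 0.16 with median-of-ratios scaling (adjusted p = 0.196). Blnk, the adaptor of the antigen receptor, rose from 126, 138 and 137 FPKM to 191, 196 and 227, and Ms4a1, which encodes CD20, by 0.50, or by 0.20 when rescaled to TPM (adjusted p = 0.141). Pax5, the factor that holds B cell identity, did not pass at 151 to 165 FPKM in the controls and 169, 168 and 122 with CpG-B (log2 -0.05 ± 0.13). Of the reference genes Tbp did not pass (log2 -0.11 ± 0.10), and Hprt rose from 57.0, 63 and 56.6 FPKM to 103, 104 and 126. By the authors' deposited table, at a q-value under 0.001 and at least 2-fold, 1400 members were higher and 1439 lower. Their q-value was under 0.05 in 10554 of the 10682 members. The sign was the same there for 2246 of the 2248 changes of at least 2-fold found here. Both rest on the same libraries, so the shared sign is no separate evidence.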

How the data were processed

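RNA of 12 B cell libraries was sequenced, and the 6 of CpG-B and control are compared here. FPKM values per gene were deposited by the authors in a table of the whole series. For the alignment and quantification behind them, Bowtie2 2.2.5, RSEM 1.2.8, StringTie, HISAT and GATK are listed in the submitters' processing notes, in no stated order, as is the build mm10. Log2 ratios and q-values of the authors' own comparisons stand in the same deposited table, per the file headers, which do not name a tool for them.

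FPKM are not counts, so log2(FPKM + 1) was tested with limma 3.58.1 (trend, R 4.3.3) on 4 group means over all 12 libraries and 15853 entries above 1 FPKM in at least 3 libraries. p-values were adjusted by Benjamini-Hochberg over all of them, with a threshold of 0.05. Depth was estimated from low values: 93.9% to 95.2% lay within 0.2 of a whole fragment (40% by chance). No share that would call for a count test had been set beforehand, and no count test was run. FPKM are scaled to the mapped fragments, so a rise of abundant genes can lower the rest. Their sum was not fixed, at 439388 to 448497 in the controls and 525217 to 578445 with CpG-B. Alternatives were other pseudocounts, filters, scalings, fits, a replicate block and leaving out each library. The step was tested on simulated data.

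The members and the 52 gene lists were chosen with earlier results of these data known. Genes named were the 10 largest changes each way at 10 FPKM or more without overlap, up to 3 per list in its main direction and 1 in the other at 5 FPKM or more, the most abundant, the B cell markers and references, those off in 1 group, and those of the longest runs. Cox6a2, Ddit3, Egr1, Egr3 and Slc2a1, outside that rule, were chosen after their values were seen. Promoters are RefSeq's, in GRCm38.p6, and those on chromosome 18 were left out of all motif counts. Some genes that met the rule are not reported here.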

Additional observations from a re-analysis of the deposited data

Results flagged for a closer look

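Some loci outside the known genes were higher with CpG-B, although most were lower. The table lists unnamed loci apart from known genes. They entered the fit and its adjustment of p-values and served as a measure of low signal, but are no members. Of 4993 such loci tested, 4383 passed as lower and 292 as higher with CpG-B than in the control. Of the 292, 165 were higher by at least 2-fold, and 154 stood at 10 FPKM or more with CpG-B. The median of the 292 loci was 3.74 FPKM in the control and 12.6 FPKM with CpG-B, and the highest mean was 2930 FPKM. What these loci are was not tested.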

How the results depend on the processing

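Of the 155 named genes that passed, 148 kept direction and call in each of the 20 settings that held them. Of the rest, 7 lost the call in at least 1, and 2 changed direction in at least 1. Genes below the level in a setting, as with the filter above 5 FPKM or the unnamed-locus median subtracted, were not judged there and count as kept. Rescaled to TPM, Actb and Tmsb4x stood at -0.06 each and Tpt1 at -0.14. With median-of-ratios scaling Pax5 stood at 0.20, Rps27 at 0.17 and Tbp at 0.12; Pax5 ranged from -0.13 to 0.10 when 1 library was left out, the latter without CpG-B library 3, and Tbp at 0.00 with the unnamed-locus median subtracted. Members higher than control numbered 2443 in TPM; those lower numbered 8120 with no filter and 2042 with that median subtracted. Changes of at least 2-fold numbered 692 higher and 336 lower with a pseudocount of 5, 553 lower above 5 FPKM, 1608 lower in TPM, and 2093 higher and 508 lower with the median subtracted. Against CpG-A 3262 members were higher and 1277 lower with median-of-ratios scaling, and 2076 lower with upper-quartile scaling. Against CpG-C 5 were higher with no filter, with a pseudocount of 0.1 or with the median subtracted, and 6 in TPM, and 10 were lower with the median subtracted. The ribosomal protein share exceeded the control by 10.2 percentage points, or 9.05 with the median subtracted. Runs of neighbours numbered 19 above 5 FPKM, 8 with a pseudocount of 5 and 65 with the median subtracted. Leaving out 1 library in turn gave 3446 to 3631 members higher and 3451 to 3743 lower, 1117 to 1231 and 966 to 1150 by at least 2-fold, 1573 to 1953 and 2510 to 3433 against CpG-A, 1 to 7 and 5 to 20 against CpG-C, a share difference of 9.63 to 10.6 and 30 to 39 runs. Same-numbered control and CpG-B libraries did not deviate together (correlations 0.044, -0.124 and -0.101). Libraries 3 of CpG-B and CpG-C did in some lists, below both their partners in 23 and 22 of the 24 sterol genes. The replicate block gave 3826 higher and 3865 lower members over 12 libraries and 3394 and 3344 over 6. The cause of these shifts was not tested.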
